A study of Apis mellifera with 18 samples.

Results

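The 6 honey bee genes described here were followed across 2 tissues and 3 pollen groups. They are 2 genes with the apidaecin domain (GB47546 and GB46236), the gene GB47318 with the domain named bee antimicrobial peptide, defensin-1 (GB41428), the peptidoglycan-recognition protein PGRP-S2 (GB47805), and GB44996, whose best database hit is a phenoloxidase. These 6 of the 17545 genes in the table were chosen by identifier, with their raw counts in every group in view. Their levels and the differences between groups are therefore given as a description, without a test. All 6 members passed the filter on low counts in both tissues.

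The RNA came from Italian honey bees, in 18 libraries with 3 in each group. The groups were mouthparts of bees collecting Olea europaea (olive) pollen, mouthparts of bees collecting pear pollen, and mouthparts of control bees without pollen. The same 3 groups were sampled for a tissue labelled tentacles. The labels give neither age, task nor colony, nor whether bees were pooled. Pollen collection therefore cannot be told apart from these, and p-values measure the spread between libraries, which may be technical. The 3 mouthparts olea libraries carry conflicting labels, since their title and source name pear pollen while their genotype entry names Olea europaea pollen. Their codes in the titles begin with Y, as do those of the tentacles olea libraries, while the codes of the other pear libraries begin with L. These 3 libraries were placed by the genotype entry, and every mouthparts olea value below depends on that. The mouthparts pear group depends on it too, since by title these libraries belong there.

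Insects have no antibodies and defend themselves with recognition proteins, short antimicrobial peptides and melanin. Peptidoglycan-recognition proteins bind bacterial cell wall fragments and, in Drosophila, feed the Toll and Imd pathways, which switch on antimicrobial peptide genes through NF-kappa-B factors. Apidaecins are proline-rich bee peptides that act mainly on Gram-negative bacteria. Defensin-1, a cysteine-rich peptide active mainly on Gram-positive bacteria, is made in the fat body and in head glands, and its secreted form in royal jelly is known as royalisin. Phenoloxidases are copper enzymes that oxidise phenols on the way to melanin.

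Library totals ran from 25855496 to 41357453 counts. The tissue labels were checked against marker genes. The 137 odorant receptor genes, whose products are known from the antennae, summed to between 2086 and 2544 CPM (counts scaled to library size with TMM factors) in tentacles libraries, against between 62.3 and 100.5 CPM in mouthparts libraries. Proboscipedia, the homeotic gene of the mouthparts, had between 66.6 and 106 CPM in mouthparts and at most 0.30 CPM in tentacles. Among the mouthparts libraries, replicate 2 of the olea group and replicate 2 of the pear group stood apart in muscle markers, with summed levels of 34317 and 35794 CPM, against between 22519 and 25322 CPM in the other 7.

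The 6 genes fell into sets with opposite differences between pollen collectors and controls. Both apidaecin-domain genes and GB47318 were higher in pollen collectors than in controls in both tissues and for both pollens. Defensin-1 and GB44996 were lower in pollen collectors in all of these comparisons. PGRP-S2 was lower in 3 of the 4, and in mouthparts olea its libraries overlapped those of controls. In tentacles pear against control, 3 of 6 members were higher and 3 lower without overlap of the libraries, where 22.6% of all genes tested were higher and 19.3% lower in this way. In tentacles olea the same 3 were higher and 3 lower (23.0% and 18.4% of genes), and in mouthparts pear likewise 3 and 3 (25.5% and 25.9%). In mouthparts olea 3 were higher and 2 lower (18.9% and 23.9%). With the mouthparts olea libraries grouped as pear, as their titles have it, the log2 folds of mouthparts pear against control were -1.64 for defensin-1, -0.39 for PGRP-S2 and -3.66 for GB44996. Without the 3 mouthparts libraries numbered 2, no log2 fold of a member moved by over 1.5 times. Pear and olea were set against the same control libraries, so these comparisons are not independent. In each sample, fewer cells of a type and less RNA per cell cannot be told apart.

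**Figure D1:**
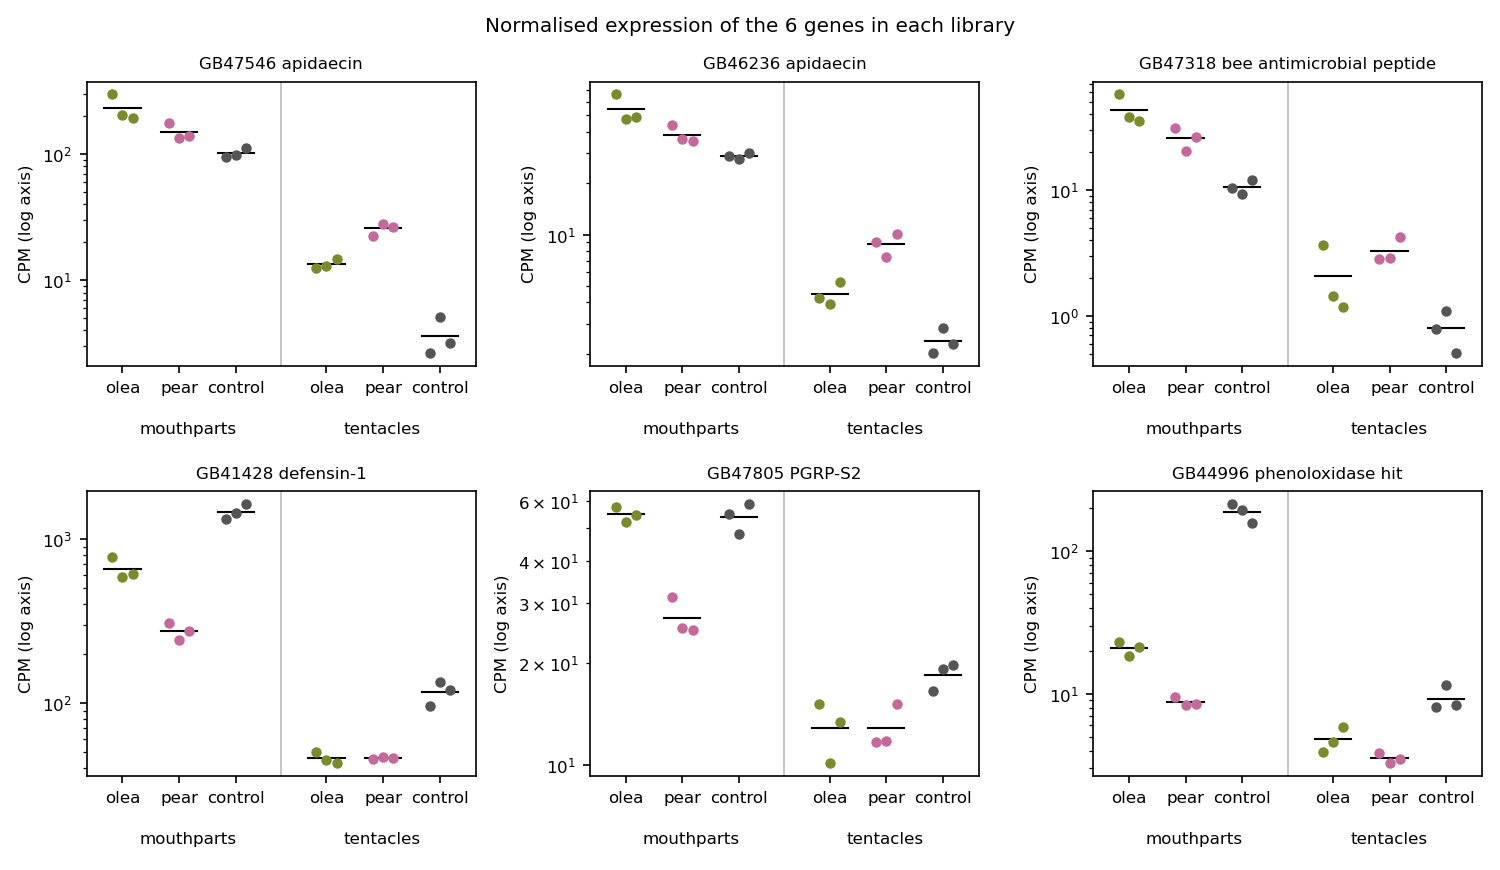
TMM-scaled CPM of the 6 genes, on log axes, in each of the 18 libraries by tissue and pollen group; points are libraries and bars are group means. The upper row (GB47546, GB46236 and GB47318) is lowest in controls of each tissue, and defensin-1 and GB44996 in the lower row are highest in controls.

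GB47546, an apidaecin-domain gene, had 297, 203 and 192 CPM in mouthparts olea libraries, 176, 135 and 139.9 CPM in mouthparts pear libraries and 95.7, 98.2 and 112 CPM in mouthparts controls. The groups formed 3 steps without overlap, with the highest value in olea replicate 1. The log2 fold was 1.20 ± 0.19 (SE) for olea against control and 0.57 ± 0.18 for pear against control. In tentacles the gene had 12.6, 13.0 and 14.8 CPM in olea libraries, 22.6, 28.2 and 26.6 CPM in pear libraries and 2.65, 5.08 and 3.16 CPM in controls. Here pear libraries were above olea libraries, the reverse of the order in mouthparts. The log2 fold was 1.87 ± 0.20 for olea against control and 2.81 ± 0.20 for pear against control, a 7.01-fold higher level with pear pollen.

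GB46236, the second apidaecin-domain gene, took the same order of groups. It had 66.2, 47.5 and 48.6 CPM in mouthparts olea libraries, 43.6, 36.4 and 35.5 CPM in mouthparts pear libraries and 28.7, 27.6 and 30.2 CPM in mouthparts controls. In tentacles it had 4.24, 3.93 and 5.24 CPM in olea libraries, 9.02, 7.34 and 10.1 CPM in pear libraries and 2.02, 2.83 and 2.30 CPM in controls. No 2 neighbouring groups overlapped in either tissue. The log2 folds against control were 0.92 ± 0.13 for olea and 0.42 ± 0.13 for pear in mouthparts, and 0.89 ± 0.17 for olea and 1.87 ± 0.17 for pear in tentacles.

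The ratio of GB47546 to GB46236, taken per transcript length as FPKM, was not constant. It ran from 1.24 to 1.41 in mouthparts olea, 1.17 to 1.27 in mouthparts pear and 1.04 to 1.16 in mouthparts controls. In tentacles it ran from 0.889 to 1.04 in olea libraries, 0.785 to 1.21 in pear libraries and 0.410 to 0.563 in controls. The tentacles controls thus held the lowest ratio, below 1 in all 3 libraries. Apidaecin genes are known for their repeated, nearly identical stretches, so reads may have been shared between these genes in the authors' counting, and the level of each one alone is uncertain.

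Another gene with the apidaecin domain, GB51306, is not one of the 6 members and could be tested. It had 36.9, 65.4 and 59.3 CPM in mouthparts olea libraries, 15.6, 16.2 and 17.6 CPM in mouthparts pear libraries and 28.2, 23.5 and 29.2 CPM in mouthparts controls. In mouthparts it rose with olea pollen (log2 fold 1.01 ± 0.19, edgeR adjusted p = 0.00443) and fell with pear pollen (log2 fold -0.71 ± 0.19, edgeR adjusted p = 0.0195). The call for olea against control was lost without the 3 mouthparts libraries numbered 2 (log2 fold 0.77, edgeR adjusted p = 0.0517). In tentacles it had 2.24, 2.04 and 1.28 CPM in olea libraries, 6.37, 3.81 and 2.67 CPM in pear libraries and 0.631, 1.10 and 0.239 CPM in controls. There it rose with pear pollen (log2 fold 2.64 ± 0.47, edgeR adjusted p = 0.00299, and 1.46 on log2(FPKM + 1)), and for olea pollen the log2 fold was 1.43 ± 0.49 (edgeR adjusted p = 0.0582). In mouthparts pear it was thus lower than in controls, where the members GB47546 and GB46236 were higher. That direction depends on the genotype entry. The mouthparts olea libraries, pear by title, had at least 36.9 CPM, and mouthparts controls at most 29.2 CPM.

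GB47318 has a domain named bee antimicrobial peptide, and the table gives it no further name. It had 57.6, 37.8 and 35.5 CPM in mouthparts olea libraries, 31.0, 20.5 and 26.2 CPM in mouthparts pear libraries and 10.4, 9.32 and 12.0 CPM in mouthparts controls. The groups did not overlap, and the log2 fold against control was 2.06 ± 0.23 for olea and 1.30 ± 0.23 for pear. In tentacles it had 3.65, 1.44 and 1.18 CPM in olea libraries, 2.82, 2.90 and 4.20 CPM in pear libraries and 0.783, 1.10 and 0.507 CPM in controls. The tentacles controls held only 17 to 50 reads per library, which limits the precision of the folds of 1.34 ± 0.44 for olea and 2.01 ± 0.43 for pear on the log2 scale. Without olea replicate 1, GB47318 had a log2 fold of 0.68 for olea against control in tentacles.

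Defensin-1 was lower in pollen collectors than in controls in both tissues. It had 782, 584 and 613 CPM in mouthparts olea libraries, 308, 242 and 277 CPM in mouthparts pear libraries and 1327, 1446 and 1626 CPM in mouthparts controls. All pollen libraries were below all controls, with a log2 fold of -1.14 ± 0.13 for olea and -2.41 ± 0.14 for pear, the second a 5.30-fold lower level. In tentacles it had 50.4, 44.8 and 43.1 CPM in olea libraries, 45.5, 46.7 and 46.1 CPM in pear libraries and 95.5, 134 and 119.8 CPM in controls. The log2 fold against control in tentacles was -1.35 ± 0.11 for each of the pollens. Defensin-2 (GB47618), the only other gene with the arthropod defensin domain, was at 1.17 CPM or less in all 18 libraries.

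The make-up of the antimicrobial peptide transcripts differed between the groups. Per transcript length, defensin-1 made up 60.6 ± 2.18% (SD, n = 3) of the summed FPKM of the 4 antimicrobial peptide members in mouthparts olea, 49.8 ± 1.13% in mouthparts pear and 89.9 ± 0.567% in mouthparts controls. In tentacles its share was 64.3 ± 2.89% in olea libraries, 49.5 ± 3.01% in pear libraries and 91.9 ± 1.24% in controls. The order of the 3 groups was the same in both tissues, although the summed FPKM averaged 1322, 710.2 and 1903 in mouthparts olea, pear and control and 106, 138 and 190.0 in tentacles olea, pear and control. GB47318 made up 16.6% in mouthparts olea, 19.6% in mouthparts pear and 2.72% in mouthparts controls, and 11.6%, 14.7% and 2.62% in tentacles olea, pear and control. In tentacles olea replicate 1 its share was 18.7%, against 8.96% and 7.26% in the other olea libraries.

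**Figure D2:**
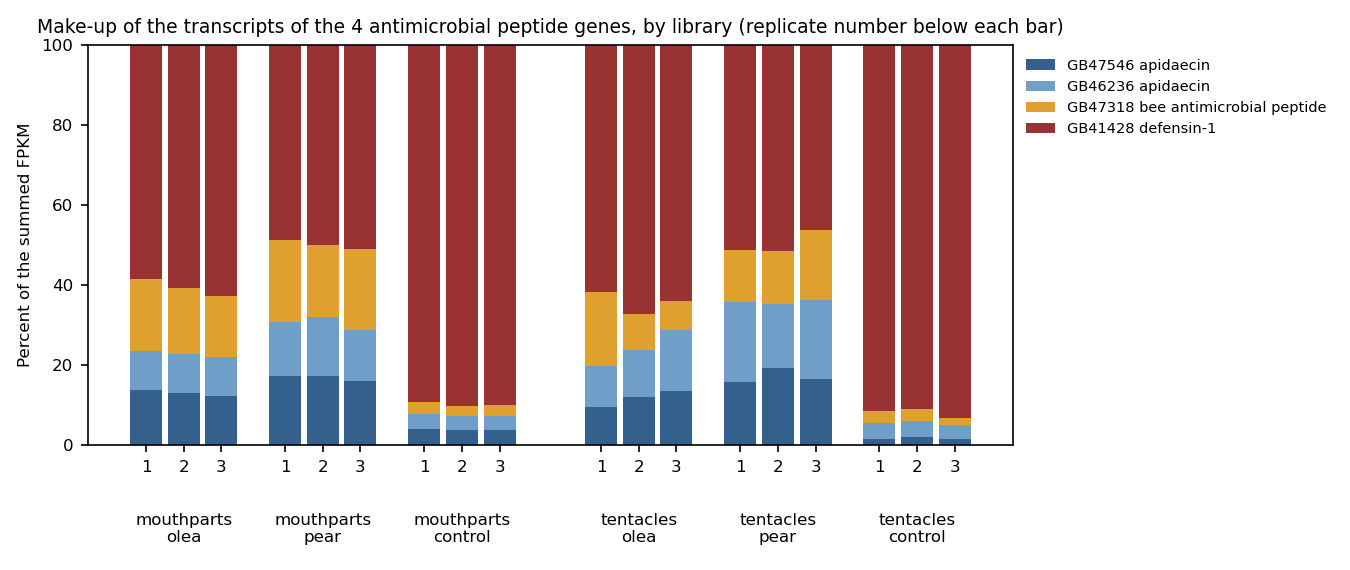
Share of each antimicrobial peptide member in the summed FPKM of the 4, as stacked percent, for every library by tissue and pollen group. Defensin-1 is between 89.3% and 93.3% in control libraries of both tissues and between 46.1% and 67.3% in all pollen libraries.

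PGRP-S2, a secreted peptidoglycan-recognition protein, was lower with pear pollen in both tissues and with olea pollen in tentacles. It had 57.7, 52.0 and 54.8 CPM in mouthparts olea libraries, 31.3, 25.3 and 25.0 CPM in mouthparts pear libraries and 55.0, 48.1 and 58.7 CPM in mouthparts controls. Olea and control libraries overlapped (log2 fold 0.04 ± 0.10), and all pear libraries were below both, with a log2 fold of -0.98 ± 0.10 against control. In tentacles it had 15.1, 10.1 and 13.4 CPM in olea libraries, 11.7, 11.8 and 15.1 CPM in pear libraries and 16.5, 19.1 and 19.7 CPM in controls. The log2 fold against control was -0.53 ± 0.14 for each pollen, with the nearest libraries at 15.1 and 16.5 CPM.

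The table names 3 other peptidoglycan-recognition genes, which are no members. In mouthparts, PGRP-S3 (GB51741) fell in pear libraries to 104 ± 12.9 CPM, against 133 ± 4.27 CPM in controls (SD, n = 3 each; log2 fold -0.35 ± 0.10, edgeR adjusted p = 0.0161). GB42500, whose hit is the membrane-bound receptor PGRP-LC, had a log2 fold of -0.17 ± 0.06 in that comparison (edgeR adjusted p = 0.0485). GB47804, whose hit is peptidoglycan-recognition protein 1 and which stands next to PGRP-S2 in the reference gene order of Amel_HAv3.1, rose in mouthparts pear to 2.49 ± 0.488 CPM, against 1.21 ± 0.213 CPM in controls (log2 fold 1.04 ± 0.24, edgeR adjusted p = 0.00642). None of these 3 genes passed the edgeR test against control in tentacles or in mouthparts olea, where adjusted p ran from 0.0797 to 0.80 over the 9 tests. They were described because they share a domain with PGRP-S2, after its values had been seen.

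GB44996 had the largest log2 folds against control among the members in mouthparts. It had 23.2, 18.4 and 21.3 CPM in mouthparts olea libraries, 9.56, 8.40 and 8.50 CPM in mouthparts pear libraries and 213, 194 and 159 CPM in mouthparts controls. This was 8.90-fold lower with olea pollen and 21.3-fold lower with pear pollen than in controls (log2 fold -3.15 ± 0.12 and -4.41 ± 0.13). In tentacles it had 3.93, 4.59 and 5.88 CPM in olea libraries, 3.88, 3.27 and 3.51 CPM in pear libraries and 8.02, 11.5 and 8.32 CPM in controls. The log2 fold against control there was -0.96 ± 0.17 for olea and -1.39 ± 0.17 for pear. The olea and pear ranges in tentacles came within 3.93 and 3.88 CPM of each other.

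The name phenoloxidase is not secure for GB44996. It rests on a hit in the housefly with an e-value of 6.1e-43 and on a copper-containing hemocyanin domain, which hexamerins, the storage proteins of insects, share with phenoloxidases. The table holds 4 other genes with hemocyanin domains, and GB43738 among them has the closest hit, with an e-value of 1.2e-226 to an uncharacterised fly protein. The hits of GB51697 and GB51698 are to a gene with the phenoloxidase name PPO3, with e-values of 7.5e-61 and 1.1e-16. GB43738 averaged 19.0 CPM in mouthparts olea, 15.6 CPM in mouthparts pear and 51.3 CPM in mouthparts controls, and 8.82, 8.25 and 19.2 CPM in tentacles olea, pear and control. GB51698 averaged 113 CPM in mouthparts olea, 69.1 CPM in mouthparts pear and 555 CPM in mouthparts controls, and 1.70, 1.16 and 13.3 CPM in tentacles olea, pear and control. Both were lower in all pollen libraries than in all controls of the same tissue, as GB44996 was. GB51697 had log2 folds against control in mouthparts of -0.10 ± 0.11 for olea and -0.59 ± 0.11 for pear, and GB51696 was at 2.79 CPM or less in all libraries. These 4 genes were chosen after their values were seen and were not tested.

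**Figure D3:**
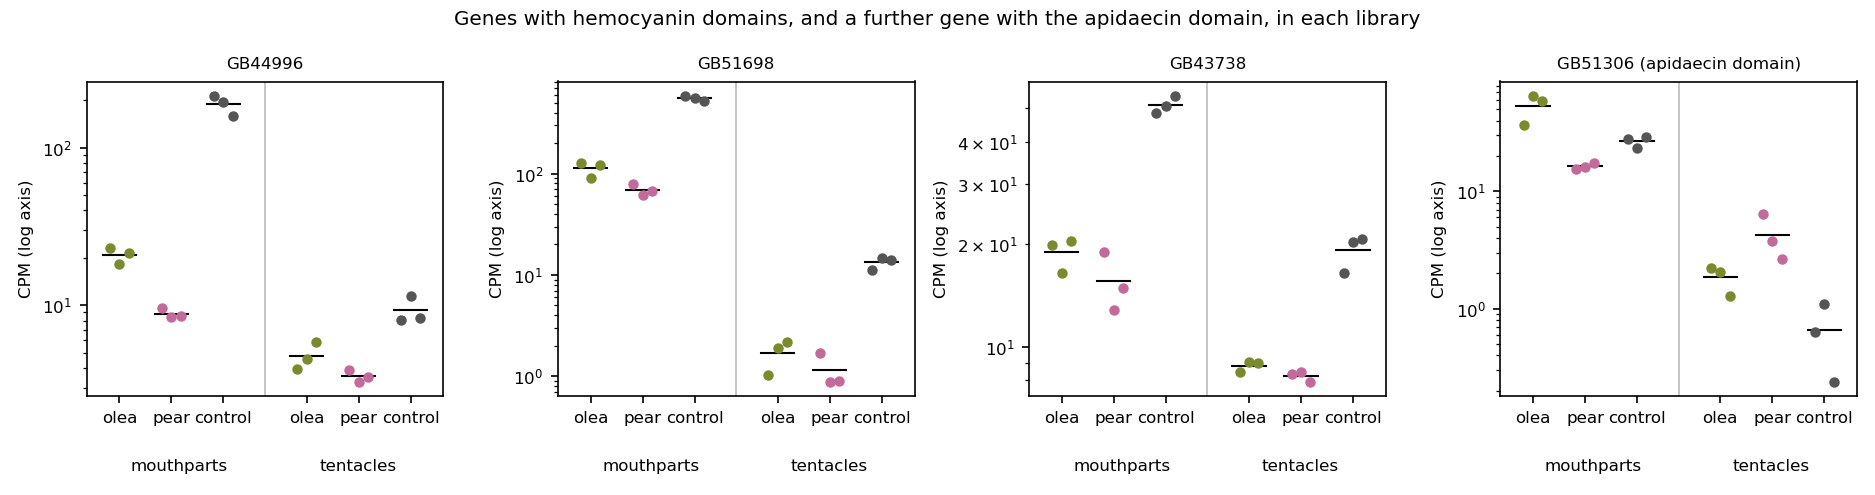
TMM-scaled CPM, on log axes, of GB44996, of GB51698 and GB43738 (hemocyanin domains) and of GB51306 (apidaecin domain) in each library by tissue and pollen group; bars are group means. The hemocyanin-domain genes shown are highest in the controls of both tissues, and GB51306 is highest in olea libraries in mouthparts and in pear libraries in tentacles.

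Between the pollens the order of the groups depended on the tissue. In mouthparts, all 6 members were higher in olea than in pear libraries without overlap, a direction in which 20.1% of all genes tested did not overlap. The log2 folds of olea against pear there were 0.63 ± 0.18 for GB47546, 0.50 ± 0.13 for GB46236, 0.76 ± 0.22 for GB47318, 1.27 ± 0.13 for defensin-1, 1.02 ± 0.10 for PGRP-S2 and 1.26 ± 0.13 for GB44996. In tentacles, olea libraries were below pear libraries for GB47546 (log2 fold -0.94 ± 0.18) and GB46236 (-0.98 ± 0.16), and above them for GB44996 (0.43 ± 0.18). The other 3 members overlapped there, so that 1 of 6 members was higher and 2 were lower without overlap, against 14.1% and 13.9% of all genes tested. For GB47318 the tentacles log2 fold of olea against pear was -0.67 ± 0.40, and -1.33 without olea replicate 1. Defensin-1 and PGRP-S2 had a log2 fold below 0.01 in size, with standard errors of 0.11 and 0.15.

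**Figure D4:**
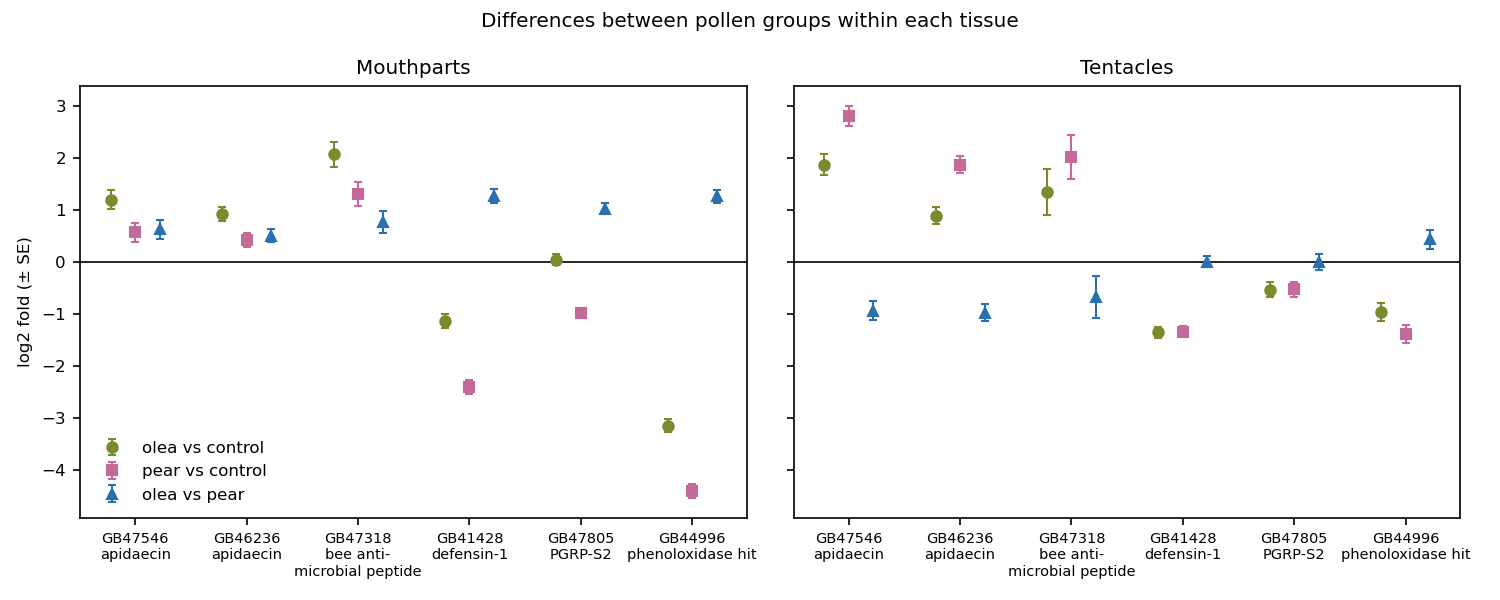
Log2 folds of the 6 genes with their standard errors for olea against control, pear against control and olea against pear, in mouthparts (left) and tentacles (right); the line marks no difference. Folds against control are above 0 for GB47546, GB46236 and GB47318 and, apart from PGRP-S2 in mouthparts olea, below 0 for the other 3; olea against pear is above 0 for all 6 in mouthparts.

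Mouthparts held more of every member than tentacles in every pollen group, and no library of a member overlapped between the tissues. Of all genes tested, 37.1%, 36.5% and 35.2% were higher in this way in olea, pear and control bees. The log2 folds of mouthparts against tentacles in controls were 4.80 ± 0.23 for GB47546, 3.59 ± 0.17 for GB46236, 3.69 ± 0.38 for GB47318, 3.65 ± 0.14 for defensin-1, 1.55 ± 0.13 for PGRP-S2 and 4.34 ± 0.15 for GB44996. With pear pollen they ran from 1.08 ± 0.13 for PGRP-S2 to 2.97 ± 0.32 for GB47318, and with olea pollen from 2.09 ± 0.14 for PGRP-S2 to 4.40 ± 0.35 for GB47318. On log2(FPKM + 1), GB44996 had a log2 fold of 1.33 with olea pollen, 0.67 with pear pollen and 3.58 in controls, against 2.12, 1.31 and 4.34 from the counts, and GB47546 had 4.13 in controls. Across different pollen groups, only GB44996 had libraries of the 2 tissues that overlapped, with mouthparts pear between 8.40 and 9.56 CPM and tentacles controls between 8.02 and 11.5 CPM.

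Per transcript length, defensin-1 was the highest member in every group, and the order of the others differed between groups. In mouthparts controls defensin-1 led with 1711 ± 149.6 FPKM (SD, n = 3), ahead of GB47546 with 73.6 ± 5.14, GB46236 with 66.6 ± 2.43, GB47318 with 51.8 ± 5.99, GB44996 with 44.2 ± 7.06 and PGRP-S2 with 36.1 ± 3.33 FPKM. In mouthparts olea GB47318 came next after defensin-1 (222 ± 65.1 and 798 ± 141 FPKM), and GB44996 was last with 5.07 ± 0.669 FPKM. In mouthparts pear GB47318 had 140.0 ± 31.8 FPKM, defensin-1 353 ± 51.9 FPKM and GB44996 2.26 ± 0.208 FPKM. In tentacles controls PGRP-S2, with 15.9 ± 1.02 FPKM, was second to defensin-1 with 175 ± 25.3 FPKM.

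Within the mouthparts groups and the tentacles controls, most of the members were highest in the same library. Replicate 1 was the highest library for 6 of 6 members in mouthparts olea and for 6 of 6 in mouthparts pear. In mouthparts controls replicate 3 was highest for 5 of 6 members, all but GB44996. In tentacles controls replicate 2 was highest for 5 of 6, all but PGRP-S2. In the tentacles pollen groups no library was highest for more than 3 of 6. The same count over all genes tested was not made, so whether these shared libraries are particular to the members was not tested.

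Correlations of log2 CPM were taken over all libraries and within each tissue. Over the 18 libraries, which fall into tissues and pollen groups and are therefore not independent points, Pearson's r was 0.99 between GB47546 and GB46236 and 0.97 between GB47546 and GB47318. Members of opposite sets were also positively correlated over the 18, with r from 0.39 (GB47318 and GB44996) to 0.78 (GB46236 and PGRP-S2), so these values do not separate the sets. Within the 9 mouthparts libraries r between defensin-1 and GB44996 was 0.95, and between defensin-1 and GB47546 it was -0.37. Within the 9 tentacles libraries these values were 0.90 and -0.88. Between PGRP-S2 and GB47546 r was 0.10 within mouthparts and -0.72 within tentacles. The genes most like GB47546, after GB46236, were GB50423 with a leucine-rich repeat (r = 0.99) and basigin (GB44726, r = 0.98), a membrane glycoprotein. GB50423 was also the gene most like GB47318 (r = 0.98). Defensin-1 was most like GB45696, whose hit is the ETS factor Elf-5, and GB50931, whose hit is the box A-binding factor of the GATA type (r = 0.99 each). PGRP-S2 was most like GB48309, which has no name in the table (r = 0.98), and GB41242, a SEC62 translocation protein (r = 0.98). GB44996 was most like GB50970, a mitochondrial 3-ketoacyl-CoA thiolase (r = 0.99).

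Marker genes of other cell types differed between the same groups. The fat body is the insect counterpart of liver and fat and a main source of antimicrobial peptides. The 3 fat body marker genes found, apolipophorins among them, summed to between 794 and 903 CPM in mouthparts olea, 338 and 424 CPM in mouthparts pear and 1321 and 1449 CPM in mouthparts controls. In tentacles they summed to between 27.5 and 28.1 CPM in olea, 26.4 and 28.9 CPM in pear and 37.0 and 42.8 CPM in control libraries. The olea and pear sums overlapped in tentacles. Of the fat body genes tested, 1 of 3 rose and 1 fell in mouthparts olea against control, 2 of 3 fell in mouthparts pear, and 1 of 2 fell with each pollen in tentacles (edgeR). Apolipophorin-III (GB55452), a lipid carrier of the hemolymph, averaged 639 CPM in mouthparts olea, 229 CPM in mouthparts pear and 1198 CPM in mouthparts controls, and so made up most of each sum there. The apolipophorins-like gene GB55490 averaged 208 CPM in mouthparts olea, 143 CPM in mouthparts pear and 169.9 CPM in mouthparts controls. In tentacles olea, pear and control, GB55490 averaged 13.9, 12.8 and 12.1 CPM, and apolipophorin-III 13.8, 14.9 and 28.2 CPM. The 10 genes with the major royal jelly protein name, markers of the hypopharyngeal gland, summed to between 55.3 and 214 CPM in mouthparts olea, 17.3 and 22.1 CPM in mouthparts pear and 11510 and 12584 CPM in mouthparts controls. In tentacles they summed to at most 2.81 CPM in olea and 1.83 CPM in pear libraries, and to between 2326 and 3811 CPM in controls. In the 4 groups with a common highest library of the members, the gland sum was highest in that library in mouthparts olea (214 CPM in replicate 1, against 60.1 and 55.3 CPM), mouthparts pear (22.1 CPM in replicate 1, against 17.3 and 21.0 CPM) and tentacles controls (3811 CPM in replicate 2). In mouthparts controls it was highest in replicate 2, with 12584 CPM, and the members' common library, replicate 3, had 12376 CPM. Hemocytes are the circulating blood cells, and 4 marker genes of theirs were found. In mouthparts these summed to between 414 and 445 CPM in olea, 402 and 443 CPM in pear and 540.3 and 581 CPM in control libraries. In tentacles the sums ran from 411 to 442 CPM in olea, 405 to 420 CPM in pear and 363 to 382 CPM in controls. There the control sums were lowest, but the 2 most abundant of these genes were not higher with pollen. Hemocytin (GB41850) averaged 156, 124 and 168 CPM in tentacles olea, pear and control, and croquemort (GB44045) 91.8, 103 and 105 CPM. In mouthparts olea, pear and control, hemocytin averaged 275, 313 and 405 CPM, and croquemort 120, 92.3 and 116 CPM. By edgeR, 0 of the 4 rose in mouthparts, while 2 fell with olea and 3 with pear pollen. In tentacles 1 rose and 1 fell with each pollen. No defining marker of the fat body or hemocyte lists was at 0 in any whole group, and 1 royal jelly gene was at 0 in tentacles controls. The 27 muscle genes summed to between 4216 and 4309 CPM in tentacles olea, 3049 and 3195 CPM in tentacles pear and 4083 and 4597 CPM in tentacles controls. Of 25 muscle genes tested in tentacles, 1 rose and 6 fell with olea pollen, 1 rose and 18 fell with pear pollen, and 15 rose and 1 fell in olea against pear. Of the 20 neuron genes, 10 rose in tentacles with olea pollen and 7 with pear pollen, with none lower by edgeR in either, while in mouthparts 1 rose and 2 fell with olea pollen and 8 rose and 1 fell with pear pollen. As background to these counts, 14.4% of all genes tested in tentacles rose and 13.5% fell with olea pollen, and 14.9% and 14.6% with pear pollen. Between olea and pear 2.6% passed there in either direction. In mouthparts 12.0% of all genes rose and 14.8% fell with olea pollen, and 16.5% and 17.3% with pear pollen. The part of these cell types in the members' differences was not tested.

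**Figure D5:**
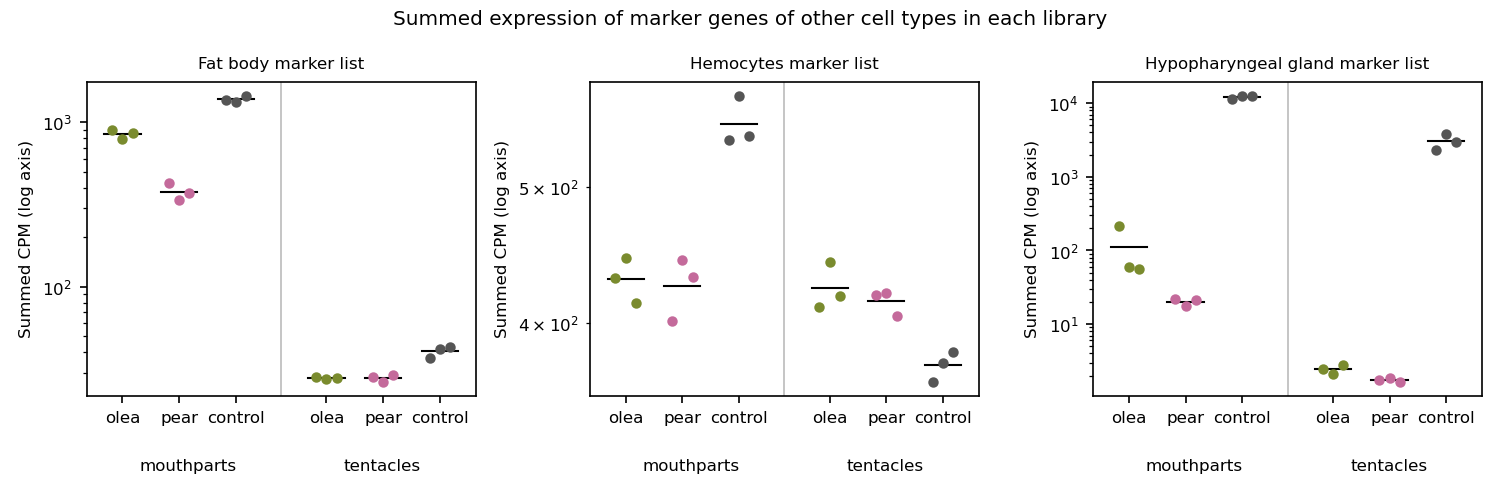
Summed TMM-scaled CPM, on log axes, of the fat body (3 genes), hemocyte (4 genes) and hypopharyngeal gland (10 genes) marker lists in each library by tissue and pollen group; bars are group means. Gland sums are between 2326 and 12584 CPM in the control libraries and at or below 214 CPM in every pollen library. Fat body sums are highest in controls of each tissue, though not each gene in them is.

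The other genes of the immune pathways, 65 genes found by words in their names and none of them a member, could be tested. In tentacles, 17 of 62 genes tested rose and 13 fell with pear pollen, against 14.9% and 14.6% of all genes. With olea pollen 16 rose and 10 fell, against 14.4% and 13.5%. In mouthparts 14 rose and 8 fell with olea pollen, against 12.0% and 14.8% of all genes, and 15 rose and 15 fell with pear pollen, against 16.5% and 17.3%. The median log2 fold of the list was between 0.00 and 0.06 in these 4 comparisons, and that of all genes between -0.01 and 0.01. Without tentacles olea replicate 1, or without tentacles olea replicate 2, 17 list genes passed for olea against control in tentacles, in place of 26. With the mouthparts olea libraries grouped as pear, 16 passed for mouthparts pear against control, in place of 30. The immune list thus held calls in both directions in every comparison with control.

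Of the 20 Toll pathway genes tested in tentacles, 8 rose and 6 fell with pear pollen, beside 14.9% and 14.6% of all genes. The receptor protein Toll (GB48426) rose to 18.1 ± 0.818 CPM, against 10.3 ± 0.453 CPM in controls (SD, n = 3 each; log2 fold 0.80 ± 0.08, edgeR adjusted p = 1.99e-05). A gene for Spaetzle, the ligand of Toll (GB45218), fell to 1.84 ± 0.267 CPM there, against 3.22 ± 0.45 CPM (log2 fold -0.81 ± 0.18, edgeR adjusted p = 0.0054). TRAF6 (GB47167), a signalling adaptor, fell in tentacles with olea pollen to 1.21 ± 0.32 CPM, against 2.36 ± 0.568 CPM (log2 fold -0.97 ± 0.26, edgeR adjusted p = 0.0165). That call was lost without tentacles control replicate 1, olea replicate 1 or olea replicate 3 (edgeR adjusted p between 0.0618 and 0.073).

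Of the 12 Imd pathway genes tested, 2 rose and 3 fell in tentacles with pear pollen (14.9% and 14.6% of all genes), and 3 rose and 2 fell in mouthparts with pear pollen (16.5% and 17.3%). GB55264 has its hit to NF-kappa-B p105, which resembles Relish, the Imd transcription factor of Drosophila. In mouthparts it fell to 1.04 ± 0.235 CPM in olea and 0.946 ± 0.15 CPM in pear libraries, against 3.41 ± 0.752 CPM in controls (log2 fold -1.69 ± 0.24 and -1.84 ± 0.23, edgeR adjusted p = 0.000388 and 9.18e-05), and on log2(FPKM + 1) the log2 fold was -0.72 for each pollen. GB45352, whose hit is caspase-8, fell in tentacles with olea pollen (log2 fold -0.80 ± 0.15, edgeR adjusted p = 0.00253). In mouthparts it had 24.1 ± 4.50 CPM in olea and 10.6 ± 4.26 CPM in pear libraries, and its calls there for pear against control (edgeR adjusted p = 0.012) and olea against pear (edgeR adjusted p = 0.0087) were lost without the 3 libraries numbered 2 (edgeR adjusted p = 0.172 and 0.129). With the mouthparts olea libraries grouped as pear, its log2 fold for pear against control was -0.38 (edgeR adjusted p = 0.58), in place of -1.10.

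Among recognition genes, 4 of 12 rose and 1 fell in tentacles with olea pollen, beside 14.4% and 13.5% of all genes. Beta-1,3-glucan-binding protein 1 (GB42981), which binds fungal cell walls, rose there to 14.5 ± 0.721 CPM, against 7.72 ± 0.856 CPM in controls (log2 fold 0.90 ± 0.10, edgeR adjusted p = 6.5e-05). Of the 7 melanization genes, laccases and serpins, none rose and 3 fell by edgeR with each pollen in mouthparts, where 14.8% of all genes fell with olea pollen and 17.3% with pear pollen. No test compared the roles with each other or with all genes. The laccase-3-like gene GB41260 fell in mouthparts olea to 6.84 ± 0.652 CPM, against 12.0 ± 0.425 CPM (log2 fold -0.80 ± 0.13, edgeR adjusted p = 0.000954).

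Between the pollens, 11 of 62 list genes rose and 8 fell in mouthparts olea against pear, beside 14.9% and 15.9% of all genes. Of 3 genes named dorsal, after the NF-kappa-B factor of the Toll pathway, GB42472 fell in olea libraries to 14.9 ± 2.61 CPM, against 24.5 ± 0.504 CPM in pear libraries (log2 fold -0.70 ± 0.12, edgeR adjusted p = 0.000949). The other two, GB44031 with 136 CPM in olea and 154 CPM in pear libraries (log2 fold -0.17 ± 0.07, edgeR adjusted p = 0.0742) and GB42473 (log2 fold -0.35 ± 0.16, edgeR adjusted p = 0.124), did not pass. In tentacles only the lysozyme GB40164 (log2 fold 0.44 ± 0.08, edgeR adjusted p = 0.0164) and the NF-kappa-B inhibitor cactus (GB44185, log2 fold 0.25 ± 0.06, edgeR adjusted p = 0.0431) passed in olea against pear, where 2.6% of all genes passed. The cactus call was lost without each of the 6 libraries compared in turn (edgeR adjusted p from 0.0908 to 0.206) and in 9 of 16 alternatives in all. The lysozyme call was lost in 5 of those 6 fits and held without pear replicate 2 (edgeR adjusted p up to 0.106).

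Between tissues, 38 of 63 list genes were higher in mouthparts and 12 lower with olea pollen, 36 and 9 with pear pollen, and 37 and 11 in controls. Of all genes 35.3%, 33.2% and 34.4% were higher and 40.3%, 35.3% and 36.0% lower with olea, pear and in controls. Of the 6 effector genes tested, 5 were higher in mouthparts in each group. The lysozyme GB40164, an enzyme that cuts bacterial cell walls, averaged 549 CPM in mouthparts olea, 476 CPM in mouthparts pear and 598 CPM in mouthparts controls, against 19.9, 14.7 and 18.6 CPM in tentacles olea, pear and control (log2 folds from 4.79 to 5.02, the largest edgeR adjusted p 1.86e-19). The Gram-negative bacteria-binding protein GB42685 averaged 1815 CPM in mouthparts olea and 1614 CPM in mouthparts pear, against 158 and 166 CPM in tentacles (log2 fold 3.52 ± 0.07 and 3.28 ± 0.07, edgeR adjusted p = 3.7e-19 and 8.56e-19). A second Spaetzle gene, GB48769, went the other way, with 0.217 ± 0.124 CPM in mouthparts pear and 2.10 ± 0.444 CPM in tentacles pear (log2 fold -3.25 ± 0.36, edgeR adjusted p = 1.39e-07). On log2(FPKM + 1), a scale that understates folds of low genes, its log2 fold was -0.75.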

How the data were processed

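Read counts for each gene in each library were deposited, and the submitters' processing notes name HISAT2 as the aligner. For its version, the genome build, the annotation and the counter, nothing is stated in the labels. FPKM, a value per transcript length and library size, is in the authors' table as well and served to compare genes per length. Lines broken in the table (70) were joined to the line before. Names come from the table's KEGG hits (e-value at most 1e-10) or Pfam domains, and RefSeq symbols of Amel_HAv3.1 matched 2 of the 6 members. Sequences of the members are not used here.

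Counts were fitted with edgeR 4.0.16 in R 4.3.3 (TMM scaling, filterByExpr by group, robust quasi-likelihood F test), over the 9 libraries of a tissue for pollen comparisons (12950 genes tested in tentacles, 12285 in mouthparts) and over all 18 for tissue comparisons (13361 genes). Adjusted p is Benjamini-Hochberg over all genes tested, with a threshold of 0.05. Groups do not overlap when every library of one is above every library of the other. Standard errors come from the F statistic. The fit was tested on simulated data. Alternatives used DESeq2 1.42.0, edgeR's RLE scaling, no low-count filter, limma 3.58.1 on log2(FPKM + 1), other sets of libraries, a replicate block, and the olea mouthparts libraries grouped as pear.

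The members, the immune list, its words and the marker lists were chosen with earlier results of these data known. List genes were found by words in their names, and false word matches (thioesterase, acetyl-transferring, phage tail lysozyme) were dropped by name. Named list genes are the 3 with the largest absolute log2 fold among those past the threshold in each comparison, with a mean of at least 1 CPM in either group. Like genes are the 3 with the highest Pearson r per member, and marker genes the 2 most abundant per list, of which some are printed. Since no molecular identifiers were counted, precision was judged from the spread between libraries rather than from read numbers.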

Additional observations from a re-analysis of the deposited data

Results flagged for a closer look

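For 5 results of immune list genes named for that same pollen against control, the difference from control was not the same in the 2 tissues, by the interaction of tissue and pollen in the edgeR fit of all 18 libraries (mouthparts fold minus tentacles fold, log2). GB51306, the apidaecin-domain gene outside the 6 members, differed by -3.35 ± 0.51 (SE) with pear pollen (edgeR adjusted p = 0.000471), with 15.6 to 17.6 CPM in mouthparts pear and 23.5 to 29.2 CPM in mouthparts controls, and 2.67 to 6.37 CPM in tentacles pear and 0.239 to 1.10 CPM in tentacles controls. GB55264, with its hit to NF-kappa-B p105, differed by -1.73 ± 0.32 with olea pollen (edgeR adjusted p = 0.00129) and by -1.61 ± 0.32 with pear pollen (edgeR adjusted p = 0.00218). These 3 interactions passed under each of 24 alternatives, which do not include the mouthparts olea libraries grouped as pear. On log2(FPKM + 1) they were smaller, at -2.0 for GB51306 with pear pollen and, for GB55264, -0.71 with olea and -0.63 with pear pollen. The laccase-3-like gene GB41260 differed by -0.63 ± 0.19 with olea pollen (edgeR adjusted p = 0.0284), and 7 of 24 alternatives lost the call, each of them without 1 library (edgeR adjusted p up to 0.0853). TRAF6 (GB47167) differed by 1.27 ± 0.43 with olea pollen (edgeR adjusted p = 0.0498), and 17 of 24 alternatives lost the call (edgeR adjusted p up to 0.18). Among genes named only for another comparison, the interaction also passed for dorsal (GB42472) with pear pollen (0.65, edgeR adjusted p = 0.00757), beta-1,3-glucan-binding protein 1 (GB42981) with pear pollen (-0.45, edgeR adjusted p = 0.0175) and cactus (GB44185) with olea pollen (0.45, edgeR adjusted p = 0.0213).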

How the results depend on the processing

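Of 1032 recomputed log2 folds of the 6 members, none reversed where groups did not overlap, 1004 moved by less than the spread between replicates and 11 moved by over 1.5 times. Of these, 3 were GB47318 without tentacles olea replicate 1 (log2 folds of 0.68 for olea against control, -1.33 for olea against pear and 5.05 for mouthparts against tentacles with olea pollen). With the mouthparts olea libraries grouped as pear, the log2 folds of pear against control in mouthparts became -1.64 for defensin-1, -0.39 for PGRP-S2 and -3.66 for GB44996, 1809 genes passed in place of 4157, and 16 list genes in place of 30. With log2(FPKM + 1) in place of counts (median log2 fold over the tested genes between tissues from -0.30 to -0.18), GB44996 had a log2 fold of -3.78 for pear against control in mouthparts, and of 1.33, 0.67 and 3.58 for mouthparts against tentacles in olea, pear and control, and GB47546 4.13 in controls. That scale also called 2569 genes for the tissue difference with pear pollen, in place of 1706.

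Calls between the pollens in tentacles were the least stable, with 337 genes passing in all, 519 by DESeq2, 1413 with the 6 libraries alone, 168 with all 18 in the fit, and 143 to 760 without 1 library (760 without control replicate 2). The 2 list genes there became 8, 1, and 0 to 3 in these last 3 settings, and 1 on log2(FPKM + 1). List calls for tentacles olea against control, 26 in all, ran from 17 to 28 without 1 library, with 17 without olea replicate 1 or without olea replicate 2.

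Over all groups, the replicate numbers were not shown to pair libraries. The correlation of deviations ran from -0.08 to 0.12 for same-numbered and from -0.10 to 0.13 for different-numbered libraries. Between mouthparts pear and olea it was 0.12, 0.08 and 0.03 for numbers 1, 2 and 3, against -0.09 to 0.02 for different numbers. Whether these libraries are paired was not tested, and the standard errors given for mouthparts olea against pear allow for no pairing. With the replicate number as a block, 1 list gene passed for tentacles olea against pear, and every other count of genes or list genes stayed within 1.5 times. Few reads of GB47318 and GB51306 were held by the tentacles controls, which limits the precision of their folds there. These libraries were not shallow, with totals of 39627987, 41357453 and 30543821 counts. The tentacles pollen libraries had between 26351165 and 31136992 counts. Leaving out 1 library at a time from the defensin-1 share, an alternative chosen after seeing the data, moved no group's share beyond its spread. The causes of these changes were not tested.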
